A study of Mus musculus with 12 samples.

Results

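The N-methyl-D-aspartate (NMDA) receptor genes Grin1, Grin2a, Grin2b, Grin2c, Grin2d and Grin3a were followed in neurons of the ventral hippocampus (vHPC) that project to nucleus accumbens (NAc), and in the whole tissue around them. They were taken by name: each is 1 of the 37310 gene identifiers counted in every library, and all 6 were found in the annotation (Gencode vM1, mouse build mm9). The 12 libraries formed 4 groups of 3: wild-type (WT) TRAP, FosB knockout (KO) TRAP, WT input and KO input. All mice were C57BL/6, carried the Cre-dependent ribosomal fusion eGFP-L10a at the Rosa26 locus, and received a retrograde herpes simplex vector with Cre under the hEf1α promoter in NAc 3 weeks before vHPC was punched. KO mice were in addition homozygous for a floxed FosB gene, so that WT and KO mice both received Cre and eGFP-L10a. TRAP, translating ribosome affinity purification, pulls tagged ribosomes with their mRNA from the infected neurons, whereas input is the RNA of the whole punch. Each library came from a pool of mice (3 by the sample labels), and each of the 6 pools gave a TRAP and an input library. Neither the sex of these mice nor their age at tissue collection is given in the sources used here, and a library whose label lacks the word input was read as TRAP.

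NMDA receptors are glutamate-gated cation channels that open only when glutamate and a co-agonist, glycine or D-serine, are both bound and the membrane is depolarized. The calcium they admit drives synaptic plasticity in hippocampal pyramidal neurons. Grin1 encodes GluN1, the obligatory subunit that binds the co-agonist. Grin2a to Grin2d encode GluN2A to GluN2D, the glutamate-binding subunits that set channel kinetics and magnesium block, and Grin3a encodes GluN3A, a glycine-binding subunit best known from young synapses. In adult forebrain GluN2A and GluN2B predominate in pyramidal neurons, GluN2C is known from cerebellar granule cells and also from astrocytes, and GluN2D from inhibitory neurons.

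The subunit genes are paralogs, so the coding sequences were first searched for the most similar 75-base stretch of each of the 15 pairs. The closest pair, Grin2a and Grin2d, still differed at 5 of 75 bases, and the other pairs at 7 to 30. When 75-base exon stretches of the 6 genes were placed back on mm9 with at most 2 mismatches allowed, no stretch of Grin2b, Grin2c, Grin2d or Grin3a had another place, and 0.292% of those of Grin1 did. Grin2a was different, as described with the levels below.

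The libraries held 3416030 to 5614089 counts on genes (median 4296057). A gene with 3 counts then stood at 0.534 to 0.878 CPM, the count scaled to library size, and a lower level was not separable from absence. Fosb, the targeted gene, measured 39.1 ± 6.65 CPM in WT and 23.2 ± 5.46 in KO among the TRAP libraries (mean ± SD, n = 3), and 25.6 ± 4.11 against 15.9 ± 1.11 among the inputs, with no overlap in either fraction, as for 11.9% and 8.37% of all genes tested. The log2 difference was -0.76 in TRAP (adjusted p 0.337 by edgeR) and -0.68 in input (adjusted p 1.00), and neither passed. A difference between the fractions was not shown (interaction -0.08, unadjusted p 0.791 by edgeR). The counts are per gene, so reads over the floxed part were not separated from the rest. In TRAP libraries, 6 of 8 glutamate neuron markers were higher than in input and 0 lower, beside 20.1% of all genes higher. The 12 GABA neuron markers summed to 442 to 927 CPM in TRAP and 1026.5 to 1218.5 in input. Of them, 1 (Cck) was called higher in TRAP and 10 lower, beside 20.1% and 22.7% of all genes. Of the 12, 1 passed the filter on low counts only through input and could only be found lower. The 10 astrocyte markers summed to 336 to 410 CPM in TRAP and 2034 to 2483 in input, the 10 of oligodendrocytes to 154 to 203 and 672 to 1120, and the 10 of microglia to 7.05 to 18.0 and 87.0 to 168. Many of these glial markers passed the filter on low counts only through input, so their number called lower is not given. One library stood apart. KO TRAP 2 had 172 CPM of Gad1 and 186 of Gad2, the enzymes of GABA synthesis, against 45.2 to 88.9 and 27.6 to 49.3 in the other TRAP libraries, and values without the pool it came from are given with several results in TRAP. WT input 1 was the shallowest library and detected 15678 genes against 17255 to 18090 in the other inputs.

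The first comparison asked which subunit mRNAs were more or less abundant on the ribosomes of vHPC-NAc neurons than in the tissue. Over both genotypes, Grin1 was higher in TRAP, Grin2a was lower, and Grin2b, Grin2d and Grin3a passed the test in neither direction. Grin2c had few counts in TRAP and could only be found lower, so it is described and not counted. Of the 13214 genes tested, 42.8% were called, 20.1% higher and 22.7% lower, so 2 called of the other 5 is near the share of all genes. In bulk libraries, fewer cells of a type and less of the mRNA per cell cannot be told apart.

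**Figure D1:**
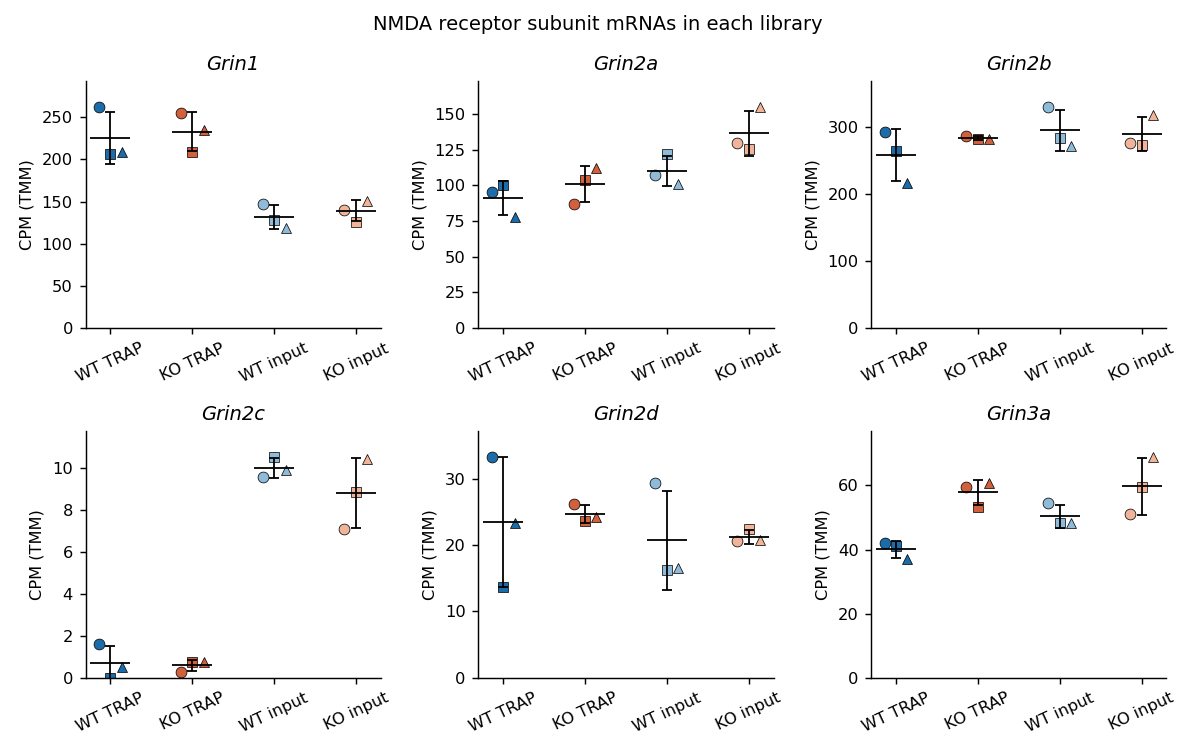
Level of each subunit mRNA in each library, in CPM after TMM scaling (vertical axes start at 0 and differ between panels). Circles, squares and triangles are pools 1, 2 and 3 for WT and 2, 3 and 4 for KO, and the line and bars are the mean and SD of 3. All TRAP libraries lie above all input libraries for Grin1 and below them for Grin2c, and the KO TRAP libraries lie above the WT TRAP libraries for Grin3a.

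Grin1, the obligatory subunit, was at 262, 206 and 209 CPM in the WT TRAP libraries and 255, 209 and 234 in those of KO. In input it was at 147, 128 and 119 CPM in WT and 140, 126 and 151 in KO. Every TRAP library was above every input library, which was so, in one direction or the other, for 22.5% of genes tested. The log2 difference of TRAP over input was 0.76 (SE 0.08, 95% CI 0.59 to 0.93), with an adjusted p of 1.20e-08 (edgeR's quasi-likelihood test, p-values adjusted over all genes by Benjamini-Hochberg). The rise was found in 6 of 6 pools, between 0.63 and 0.87, and placed Grin1 at the 96.9th percentile of all genes. Without pool KO 2 it was 0.75. A noncoding transcript on the other strand, E130003G02Rik, covers 13.5% of the exon bases of Grin1 and had 12 counts over all libraries.

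Grin2a, the subunit of mature fast-decaying receptors, was at 95.7, 100.4 and 77.6 CPM in the WT TRAP libraries and 86.8, 104 and 112 in those of KO, against 108, 122 and 101 in WT input and 130, 125 and 155 in KO input. The ranges overlapped, but within each of the 6 pools TRAP was below input, with log2 differences of -0.58 to -0.17. The fitted log2 difference was -0.36 (SE 0.09, 95% CI -0.55 to -0.17, adjusted p 0.00254 by edgeR), and without pool KO 2 it was -0.30 with an adjusted p of 0.0195.

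Grin2b, the subunit of slower receptors and the most counted of the 6, was at 292, 264 and 216 CPM in the WT TRAP libraries and 286, 282 and 281 in those of KO. Its inputs were at 328, 283 and 271 CPM in WT and 275, 273 and 318 in KO. TRAP and input overlapped, and the log2 difference was -0.11 (95% CI -0.27 to 0.05, edgeR adjusted p 0.258), or -0.13 without pool KO 2. An enrichment of the size of that of Grin1 lies outside that interval.

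Grin2c was almost absent from TRAP. It had 9, 0 and 2 counts in the WT TRAP libraries and 1, 3 and 3 in the KO TRAP libraries, against 33, 46 and 45 counts in WT input and 30, 40 and 48 in KO input. Only WT TRAP 1 held more than 3 counts. Summed, 18 counts in TRAP against 242 in input put the TRAP level at 7.65% of the input level (exact 95% CI 4.46% to 12.3%, counting error only), or 4.92% (2.22% to 9.49%) without WT TRAP 1. Grin2c passed the filter on low counts only through its input libraries, so the test could only find it lower, and its log2 difference of -3.73 (SE 0.43) and -3.64 without pool KO 2 is a description. The 10 astrocyte markers, with the sums given above, moved with it. Gfap, the astrocyte filament protein, was lower in TRAP (log2 -3.31, edgeR adjusted p 8.26e-18) with 8.24 to 16.5 CPM left, and Aqp4, the astrocyte water channel, was lower too (-3.59, adjusted p 4.22e-10), with 1.24 to 6.35 CPM left. The part of these cells in the Grin2c difference was not tested.

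Grin2d, which slows receptor decay most, was low in all groups and uneven in WT. It was at 33.3, 13.6 and 23.4 CPM in the WT TRAP libraries and 26.2, 23.7 and 24.2 in those of KO, and at 29.3, 16.3 and 16.5 in WT input and 20.6, 22.4 and 20.7 in KO input. Pool WT 1 was the highest of all in both of its libraries. The log2 difference of TRAP over input was 0.21 (95% CI -0.17 to 0.58, edgeR adjusted p 0.384), or 0.19 without pool KO 2. KO TRAP 2, the library with the high Gad1 and Gad2, was the highest of the 3 KO TRAP libraries in Grin2d and below WT TRAP 1, and the part of GABA neurons in these levels was not tested.

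Grin3a was at 42.0, 41.2 and 36.9 CPM in the WT TRAP libraries and 59.4, 53.4 and 60.8 in those of KO, against 54.5, 48.3 and 48.2 in WT input and 51.1, 59.4 and 68.8 in KO input. TRAP was below input in 5 of 6 pools and above it in KO 2. The log2 difference of -0.19 (95% CI -0.41 to 0.03) did not pass, with an edgeR adjusted p of 0.171, and was -0.25 without pool KO 2.

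**Figure D2:**
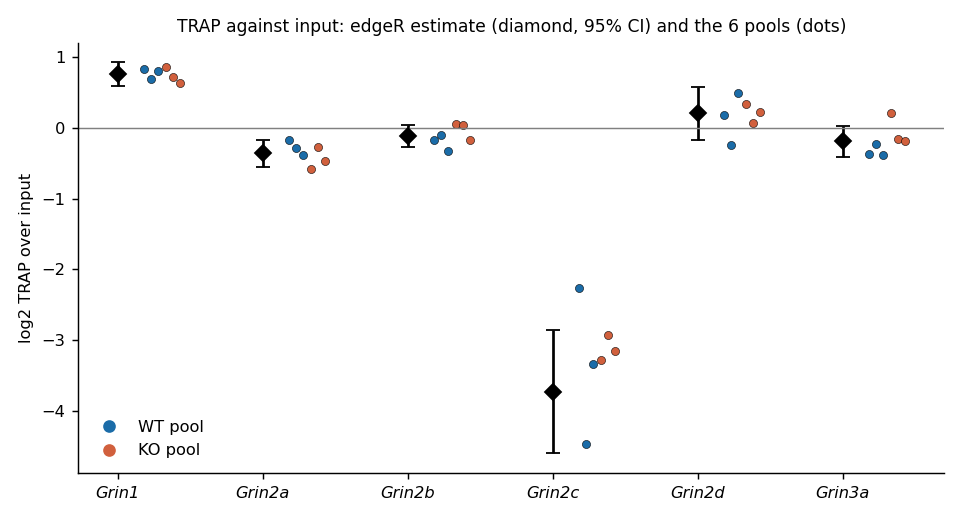
Difference of TRAP over input for each subunit on the log2 scale. Diamonds with bars are the edgeR estimate over both genotypes and its 95% CI, and dots are the 6 pools, each from log2(CPM + 0.5). The interval lies above 0 for Grin1, below 0 for Grin2a and for Grin2c, whose direction the filter fixed, and across 0 for Grin2b, Grin2d and Grin3a.

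The fractions were also compared in each genotype alone. In WT, where 24.9% of 12426 genes were called, Grin1 was higher in TRAP (log2 0.79, edgeR adjusted p 0.000223), while Grin2a at -0.26 did not pass (0.196). Grin2c, again set by the filter, was at -3.64 there, or -5.18 without WT pool 1, and at -3.84 in KO. In KO, where 29.1% of 12463 genes were called, Grin1 (0.73) and Grin2a (-0.45, adjusted p 0.00866) passed. The subunits that passed in neither genotype were at -0.18 in WT and -0.04 in KO for Grin2b, -0.32 and -0.06 for Grin3a, and 0.21 and 0.20 for Grin2d, which in WT was 0.06 without WT 3 and 0.32 without WT 2. The call of Grin2a in KO was lost without pool KO 2 (-0.40, adjusted p 0.0645) and without KO 4 (-0.43, 0.0723). The difference between the genotypes was tested itself, as the interaction of genotype and fraction over the 12 libraries, which called 0.00757% of genes. None of the 6 subunits was among them, with unadjusted p of 0.204 or more by edgeR, so the Grin2a fall passed in KO and not in WT without a difference between them being shown.

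Because receptors are assembled from GluN1 with other subunits, the balance of the mRNAs was also read within each library, as a ratio of counts that needs no scaling between libraries. For every 100 counts of Grin1 there were 73.2 to 102 counts of Grin2a in the input libraries and 34.0 to 49.7 in TRAP. The ranges did not overlap. For Grin2b the ratio was 197 to 227 per 100 in input and 103 to 135 in TRAP, again apart. Grin3a stood at 36.6 to 47.1 per 100 in input and 16.0 to 25.9 in TRAP, also apart, whereas Grin2d, at 12.7 to 19.9 and 6.61 to 12.7, overlapped at the edge. In all 6 pools, each of Grin2a, Grin2b, Grin2c, Grin2d and Grin3a was lower against Grin1 in TRAP than in input. On the log2 scale the mean shift was -1.12 ± 0.18 for Grin2a, -0.87 ± 0.17 for Grin2b, -4.77 ± 1.31 for Grin2c, -0.58 ± 0.22 for Grin2d and -0.95 ± 0.22 for Grin3a (SD over 6 pools). The value for Grin2c rests on 0 to 9 counts in TRAP and was -4.00 with 2 added to both counts. For the ratios of Grin2a, Grin2b, Grin2d and Grin3a to Grin1 the exact two-sided sign-flip test gave 0.03125 each, the smallest p that 6 pools allow, and 0.0375 after adjustment over the 6 ratios. The ratios to Grin1 share that gene, whose own level was higher in TRAP, and are not independent of each other. Grin1 was at the 96.9th percentile of all genes in TRAP over input, so most genes were lower against it. The share of genes lower against it in all 6 pools was not computed. The ratio of Grin2b to Grin2a, often read as an index of synapse maturity, was 0.25 ± 0.23 higher in TRAP. It was higher in 5 of 6 pools and level in WT 1, and did not pass (exact p 0.0625).

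**Figure D3:**
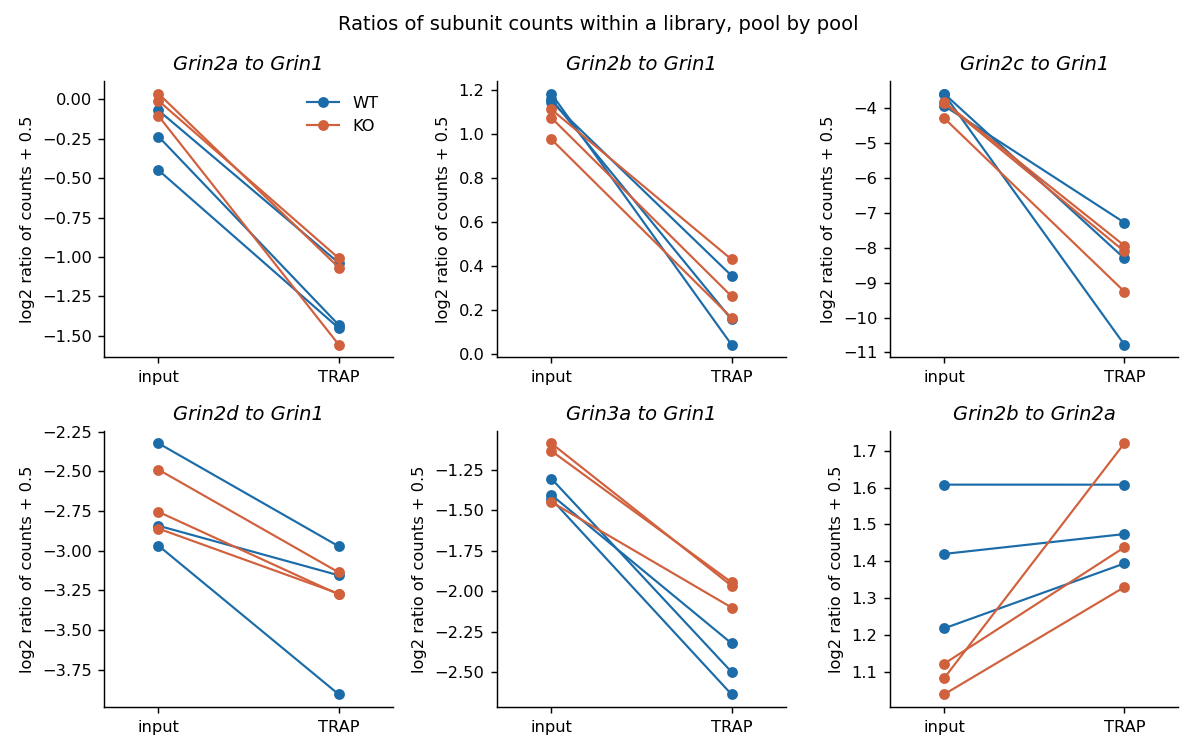
Ratio of the counts of pairs of subunits within a library, as log2 of counts + 0.5, with input and TRAP of the same pool joined by a line (axes differ between panels and do not start at 0). For each ratio to Grin1 all 6 lines fall from input to TRAP, and for Grin2b to Grin2a they rise in 5 pools and are level in WT 1.

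To compare levels between the subunits, CPM were divided by gene length. With merged exon length, Grin2b led in all groups, with 31.5 ± 4.71 CPM per kb for WT and 34.6 ± 0.33 for KO in TRAP, and 36.0 ± 3.71 for WT and 35.3 ± 3.11 for KO in input. Grin1 came next in TRAP (23.3 ± 3.21 in WT, 24.0 ± 2.39 in KO), ahead of Grin2a (17.2 ± 2.28 and 19.0 ± 2.42). In input the order of this pair was turned, with Grin2a at 20.8 ± 2.0 and 25.8 ± 2.99 and Grin1 at 13.5 ± 1.47 and 14.3 ± 1.28, and their ranges were separate in every group. The ranges of Grin2b and Grin1 overlapped in WT TRAP and not in KO TRAP. Far below them, Grin2d (3.53 to 4.21 as group means) and Grin3a (2.54 to 3.79) were not separated except in KO TRAP, where Grin2d was the higher, and Grin2c was last in every group, at 1.99 ± 0.10 in WT input and 0.14 ± 0.16 in WT TRAP.

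That order rested on the length used. A stretch of Grin2a mRNA from 3 exons, 2331 bases or 44.01% of its exon length, has a second copy in mm9, joined without introns at chr8:59431638-59433968, with 2 differing bases and no annotated gene. Of the 75-base stretches of Grin2a, 48.6% had another place in the genome, and reads with several alignments had been set aside before counting. Reads of about that length would count for Grin2a mostly from the remaining exons. This would lower its level against other subunits and leave its comparison between groups on those exons. Read length is not given, and counts by exon were not examined. With the copied part taken out of the length, Grin2a reached 30.8 ± 4.07 CPM per kb in WT TRAP, overlapping Grin2b, and 46.1 ± 5.34 in KO input, above it. With coding length alone, Grin1 led in TRAP at 76.7 ± 10.6 CPM per kb in WT and 79.1 ± 7.88 in KO, ahead of Grin2b at 57.9 ± 8.66 and 63.7 ± 0.61, and Grin3a, whose exons are mostly outside the coding part, was above Grin2d. Grin2c stayed last with all 3 lengths. Both other lengths were chosen after the values had been seen.

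**Figure D4:**
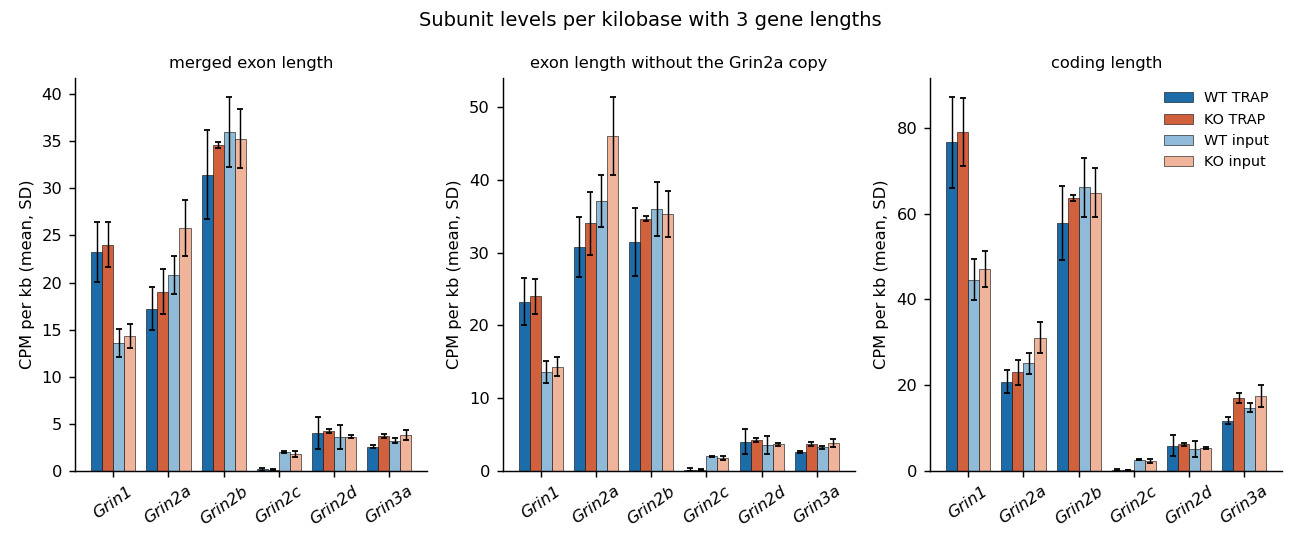
Level of the subunits per kilobase in the 4 groups with 3 gene lengths (bars are means and whiskers SD of 3 libraries, and the vertical axes differ). Grin2b leads with merged exon length, Grin2a joins it when its copied exons are left out of the length, and Grin1 leads TRAP with coding length.

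The second comparison was that of the study, KO against WT, in which no subunit passed the test. In TRAP, 8 of 11727 genes were called, 0.0682%, and 709 had an unadjusted p below 0.05. DESeq2 called 18 genes, again no subunit. Of the 6 subunits 5 could be tested, and Grin2c was too low. Grin3a was the one member with an unadjusted p below 0.05. Its 3 KO TRAP libraries were all above its 3 WT TRAP libraries, by 0.53 on the log2 scale (SE 0.15, 95% CI 0.21 to 0.85, unadjusted p 0.00210, adjusted p 0.384 by edgeR). Of all genes tested, 11.9% did not overlap in one direction or the other. It ranked 64th by p. Without KO 2 the difference was 0.51, and an exact permutation test of 3 against 3 libraries gave 0.10, the smallest p it allows. No cell type marker was called by edgeR between KO and WT TRAP, and the summed glutamate neuron markers overlapped (7899 to 9087 CPM in KO, 8797 to 9487 in WT). The all-neuron markers summed to 6601 to 7256 CPM in KO TRAP and 7640 to 8029 in WT TRAP, without overlap (2 of 5 with an unadjusted p below 0.05 by edgeR), and those of oligodendrocyte precursors to 15.6 to 25.4 and 28.5 to 49.97 (1 of 3), beside the 11.9% of single genes that did not overlap. Their part in the differences of Grin3a and the other genes was not tested.

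The other members were closer to 0 in TRAP. Grin1 differed by 0.04 (95% CI -0.19 to 0.27), Grin2a by 0.14 (-0.13 to 0.42), Grin2b by 0.14 (-0.08 to 0.35) and Grin2d by 0.06 (-0.48 to 0.60). In this fit a change of Grin1, Grin2a or Grin2b as large as the estimate for Grin3a lies outside their intervals, but the interval of Grin2d is wide enough to hold it. With the pool number as a block, the interval of Grin2b (-0.04 to 0.54) held it too. These values moved with single libraries. Without KO 2, Grin1 was at -0.03, Grin2a at 0.24, Grin2b at 0.13 and Grin2d at 0.02. Without WT 3, Grin2a was at 0.04 and Grin2b at 0.03, without KO 4 Grin2a was at 0.06, and without WT 1 Grin2b was at 0.24 (95% CI 0.02 to 0.46, unadjusted p 0.0318 by edgeR). For Grin2c, 7 counts in KO TRAP against 11 in WT TRAP gave a level of 75.2% with an exact 95% CI of 24.7% to 212%, so no difference was detectable at this depth. Of the 11, 9 came from WT TRAP 1, and the direction rests on that library.

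In input, 4 of 12816 genes were called, 0.0312%, and none was a subunit. Grin2a was higher in each KO input than in each WT input, with a log2 difference of 0.31 (95% CI 0.04 to 0.58, unadjusted p 0.0252, adjusted p 1.00 by edgeR). Of all genes tested in input, 8.37% did not overlap. The interval of Grin2a took in 0 without KO 4 (0.21, 95% CI -0.09 to 0.51), without WT 3 (0.25, -0.06 to 0.56) and with the replicate block (0.20, -0.07 to 0.48). Grin3a was at 0.25 (95% CI -0.08 to 0.59), with overlapping ranges, and at 0.14 without KO 4. Grin1 (0.08), Grin2b (-0.03), Grin2c (-0.18) and Grin2d (0.05) had intervals across 0. Leaving out 1 library moved Grin1 between 0.02 (without WT 3 or KO 4) and 0.18 (without WT 1), and Grin2c between -0.04 (without KO 2) and -0.32 (without KO 4). Markers of CA3 and dentate gyrus had a median log2 difference of 0.64 in input, 2 of 5 with an unadjusted p below 0.05 and 0 called by edgeR, with summed levels of 87.3 to 133 CPM in KO and 72.2 to 116 in WT. Their part in these values was not tested. The change of Grin3a was 0.28 larger in TRAP than in input (95% CI -0.16 to 0.72, interaction p 0.204 by edgeR), or 0.14 without pool KO 2, so a difference between the fractions was not shown.

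**Figure D5:**
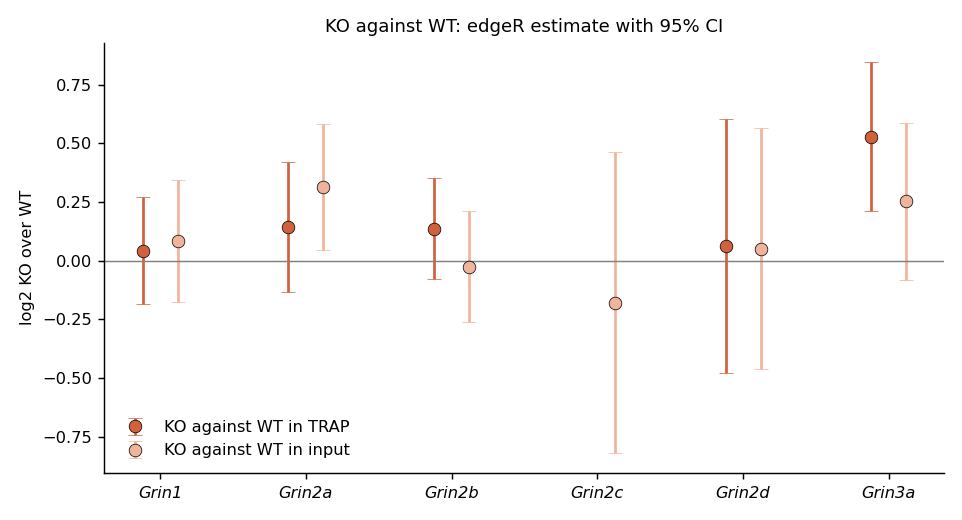
Difference of KO over WT for each subunit on the log2 scale, by edgeR with 95% CI, in TRAP (dark) and input (light). Grin2c was not tested in TRAP. The intervals leave out 0 only for Grin3a in TRAP and Grin2a in input, and neither passed after adjustment over all genes.

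The balance of the subunits was also compared between genotypes. In TRAP, Grin3a stood at 23.3 to 25.9 per 100 counts of Grin1 in KO and 16.0 to 20.0 in WT, a log2 difference of 0.48 with no overlap (exact p 0.10, adjusted over 6 ratios 0.60). In input, Grin2b to Grin1 (log2 difference -0.11) and Grin2b to Grin2a (-0.33) were lower in KO with no overlap, each also at the exact limit of 0.10 (adjusted 0.30). Without KO 2, Grin2b to Grin1 was at -0.07. Of single genes, 11.9% in TRAP and 8.37% in input did not overlap, and no such share was computed for ratios. The ratios share genes and are not independent of each other. The other 9 of these 12 comparisons had an exact p of 0.20 or more.

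Proteins that hold, move and modify the receptor, and that carry its calcium signal, were followed as a list of 75 genes. Of 70 tested, 33 were higher in TRAP than in input and 13 lower, with a median log2 difference of 0.18, beside 20.1% higher, 22.7% lower and a median of -0.01 over all genes. Of the 13, 3 passed the filter only through input. Without pool KO 2 the numbers were 32 and 13. Neuron markers moved the same way, with a median of 0.54 for those of all neurons and 0.30 for those of glutamate neurons, and their part in the list's values was not tested. In calcium signaling from the receptor, 13 of 15 genes were higher and 0 lower, against the same 20.1% of all genes. Nos1, the neuronal nitric oxide synthase tethered to the receptor, was higher by 0.94, Camk2d, a subunit of the calmodulin kinase CaMKII, by 0.66, and Tiam1, a Rac activator, by 0.58. Of the kinases and phosphatases that act on the subunits, 8 of 12 were higher and 0 lower, among them Prkcb (protein kinase C beta, 0.62), Cdk5 (0.46) and Ppp2ca (the catalytic subunit of phosphatase 2A, 0.43). In trafficking, 5 of 13 were higher and 2 lower. Lin7b, an adaptor that links receptors to motors, was at 0.88, Gipc1, a PDZ protein, at 0.66 and Kif17, the kinesin that carries GluN2B vesicles, at 0.59, against -0.29 for both Lin7c and Apba1.

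Scaffolds were split, with 6 of 19 higher and 6 lower. Akap5, which anchors kinases at the synapse, was higher by 0.51, and Dlg3, the receptor-binding SAP102, by 0.38. Homer3 (-1.43) and Homer2 (-0.60), linkers to metabotropic receptors, and Akap9 (-1.31), a kinase anchor, were lower. Of the auxiliary and minor proteins 1 of 5 was higher, Grina (0.47), and 3 were lower, among them Neto2 (-1.03) and Neto1 (-0.58), accessory proteins of glutamate receptors. For co-agonist supply 0 of 6 were higher. Slc7a10, a transporter of D-serine, was at -4.31 and Phgdh, the first enzyme of serine synthesis, at -3.10, but both passed the filter only through input and could only be found lower. The astrocyte and other glial markers given above were lower in TRAP as well, and their part in this was not tested.

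Between KO and WT TRAP, 0 of 67 genes of the list were higher and 1 was lower, and 10 had an unadjusted p below 0.05 by edgeR, beside 0.0682% called and 709 of 11727 below 0.05 among all genes. Calm3, one of several genes that encode the same calmodulin protein, was at 2475, 2707 and 2642 CPM in the WT TRAP libraries and 1867, 1935 and 1836 in those of KO. All KO libraries were below all WT libraries, and 11.9% of all genes tested did not overlap. The summed all-neuron markers given above were lower in KO TRAP too, and their part in this was not tested. The log2 difference was -0.47 (SE 0.07, adjusted p 0.00284 by edgeR), and the call was lost without pool KO 4 (-0.46, adjusted p 0.101) and kept without KO 2 (-0.47, 0.0363). In input Calm3 was also lower in KO, at 1621 to 1701 against 2120 to 2322 CPM (log2 -0.42, adjusted p 0.301), which passed under 5 alternatives: no filter on low counts (adjusted p 0.0433), DESeq2 (0.0131), DESeq2 with a normal prior (0.0147), the pool number as a block (0.0156) and a fit of all 12 libraries (0.0111). The block, whose numbers stand for different mice in WT and KO, gave -0.49 in TRAP with an adjusted p of 0.687. Calm3 lies 2.379 megabases from Fosb on chromosome 7, and Grin2d, on the same chromosome, 33.19 megabases away. No gene of the list passed in input (1 of 70 with an unadjusted p below 0.05 by edgeR, and DESeq2 passed Calm3) or as an interaction (2 of 70).

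For each subunit, the genes with the most similar profile over the 12 libraries were sought among the 13214, by Pearson correlation of log2(CPM + 0.5). The libraries are paired by pool and differ strongly by fraction, so these values only describe them. Grin1 was most like Clstn1 (0.977), a calsyntenin of the synapse, then Eid2b and Hspa2. Grin2b was most like Grm5 (0.941), the metabotropic receptor mGluR5, then Kidins220. Grin2c was followed by Rbms3 (0.985), Fyco1 and Crebbp, Grin2a by Acta2 (0.927), Fam84b and Msl2, Grin2d by Rcn1 (0.929), Gm15204 and Reep6, and Grin3a by Zfp395 (0.912), Tmem39a and Mapk1ip1.

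FosB binds DNA with Jun proteins at AP-1 sites, and the start regions of the subunit genes were therefore read for the letters TGANTCA and TGACGTCA. The RefSeq promoter table (GRCm38.p6) held 300-base windows for 3 of the 6 genes, Grin1, Grin2c and Grin2d. Neither motif was in any of the 3, on either strand. Of all 32851 windows, 7.81% held TGANTCA and 1.79% TGACGTCA.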

How the data were processed

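The 12 libraries were made by the authors from 5 ng of RNA each with a stranded total RNA kit. The authors aligned them to mm9 by TopHat, used HTSeq-count with the Gencode vM1 genes, and deposited raw counts, neither normalized nor filtered. Versions, read length and the strand setting of the counting are not given in the sources used here. These were tested by edgeR 4.0.16 under R 4.3.3 (default filter on expression by group, TMM, robust quasi-likelihood test, Benjamini-Hochberg adjustment over all genes tested, threshold 0.05). The SE is the log2 difference divided by the square root of F. DESeq2 1.42.0, named by the study, was an alternative. Ratios within a library used counts + 0.5 and exact two-sided permutation tests. CPM are TMM-scaled over the 12 libraries. Exon stretches were placed on mm9 with minimap2 2.31. Fits were also run on simulated data with 200 changed genes, and the outcome is not reported here. The simulated libraries were drawn independently, without the shared pools of the real ones. Confidence intervals are 95%, and those of counts cover counting error only.

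The 6 genes and all gene lists were chosen with earlier results of these data known. Named were the 6 genes, Fosb, list genes called between KO and WT, up to 3 list genes per direction and group called between TRAP and input, defining markers, and the 3 genes most like each member. Some of these, and sequences of the genes, are not reported here. TRAP and input of a pool come from the same mice and are paired (correlation of deviations 0.0582 to 0.106). The fits leave the pool out, as the study states no block. P-values of KO against WT within TRAP or input, and of the sign-flip tests, measure the spread between pools. Those of TRAP against input and of the interaction by edgeR measure the spread between libraries. They take the TRAP and input library of a pool as independent.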

Additional observations from a re-analysis of the deposited data

How the results depend on the processing

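The calls of Grin1 and Grin2a in TRAP against input over both genotypes held under all 14 alternatives, with log2 ranges of 0.75 to 0.82 and -0.38 to -0.30. The value of Grin2c, set by the filter, ranged from -4.27 to -3.47. With the pool as a replicate block the 3 were 0.76, -0.36 and -3.83 and the block changed no other call of a subunit. No subunit passed between KO and WT under any of the 16 alternatives run. Grin3a in TRAP ranged from 0.39 (DESeq2 with a normal prior) to 0.59 with adjusted p from 0.267. For KO against WT, shared pool numbers stand for different mice.

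The number of genes called between KO and WT in TRAP, 8, became 41 with no filter on low counts, 18 with DESeq2 and 15 with DESeq2 and a normal prior, and 5 to 20 when 1 replicate was left out. In input, 4 became 19 with no filter, 8 with DESeq2 with and without the prior, 20 with the replicate block and 7 in a fit of all 12 libraries, and 1 to 5 when 1 replicate was left out. TRAP against input called 1289 to 3243 genes in WT and 1982 to 3181 in KO with 2 pools. The interaction called 0 without robust dispersion and 0 to 1 when 1 replicate was left out. The cause was not tested.

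None of the values that changed sign was called. The interaction of Grin1 was 0.0027 with total counts only, and that of Grin2d -0.0066 with no filter and -0.0035 without mitochondrial genes. Leaving out 1 replicate, KO against WT in TRAP ranged from -0.025 to 0.17 for Grin1 and -0.20 to 0.42 for Grin2d, and in input from -0.10 to 0.067 for Grin2b and -0.10 to 0.38 for Grin2d. TRAP against input in KO alone ranged from -0.088 to 0.042 for Grin2b and -0.19 to 0.017 for Grin3a. Interactions ranged from -0.12 to 0.016 for Grin1, -0.76 to 1.32 for Grin2c, -0.11 to 0.15 for Grin2d and -0.25 to 0.044 for Fosb, and without a change of sign from 0.14 to 0.35 for Grin3a. In KO alone the fall of Grin2a (-0.54 to -0.40) lost its call without KO 2 and without KO 4.

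Of the ratios, Grin2b to Grin2a in TRAP against input passed with 2 added to both counts (0.24) and with no replicate block (0.25, exact unpaired p 0.0498). The first rests on the lowest pool, WT 1, whose difference moved only from -8.0e-05 to 0.0011. The second takes the paired libraries as independent. Leaving out 1 pool gave -1.15 to -1.05 for Grin2a to Grin1, -0.91 to -0.82 for Grin2b, -5.06 to -4.29 for Grin2c, -0.63 to -0.51 for Grin2d and -1.0 to -0.89 for Grin3a. With 5 pools the exact p cannot go below 0.0625, so the loss of these calls says nothing. Between genotypes, ratios that changed sign ranged in TRAP from -0.0050 to 0.27 for Grin2a to Grin1, -0.64 to 1.11 for Grin2c to Grin1, -0.16 to 0.30 for Grin2d to Grin1 and -0.11 to 0.087 for Grin2b to Grin2a, and in input from -0.12 to 0.20 for Grin2d to Grin1. With the lengths chosen after the data had been seen, the per-length level of Grin2b over Grin1 was -0.36 in TRAP and 0.51 in input with coding length (0.48 and 1.36 with exon length). Over Grin2a it was 0.033 and -0.21 without the copied exons and 1.48 and 1.23 with coding length (0.87 and 0.62).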
